A study of Mus musculus with 4 samples.

Results

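The genes described here are the heat shock proteins and their co-chaperones in tibialis anterior (TA) muscle, the main muscle at the front of the lower leg. They were matched by gene symbol, and the set was chosen with earlier results of these data known. It holds every symbol that begins with Hsp (leaving out Hspg2, which encodes the matrix proteoglycan perlecan) and the numbered heat shock factors (Hsf). It also holds the J-domain proteins of classes A, B and C (Dnaja, Dnajb, Dnajc), the numbered subunits of the chaperonin TRiC (Cct), and the numbered BAG genes. This gave 81 of the 13825 genes in the count table. RNA was sequenced from TA muscle of adult male mice, either wild-type (WT, C57BL/6J by the study's methods) or lacking Fgf21, a secreted growth factor, in the whole body (Fgf21KO). Denervation was done on the left side, where a piece of the sciatic nerve was cut out, and the muscle of the other leg, which kept its nerve, is the sham sample. All muscles were taken 14 days after surgery. The 4 groups are named by genotype and surgery: WS and WD are the sham and denervated muscle of WT mice, and KS and KD those of Fgf21KO mice. In each group 4 muscles were pooled before RNA extraction and sequenced as 1 library, so the spread between animals was not measured. The strain background of the Fgf21KO mice is not given in the sources used here, and the sources differ on the length of nerve removed and on whether the other leg was opened.

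Chaperones bind unfolded or partly folded proteins. Small heat shock proteins hold them in a soluble state, Hsp70 proteins bind and release them in cycles started by J-domain proteins and reset by nucleotide exchange factors such as Hsp110 and BAG proteins, Hsp90 completes the folding of selected client proteins, and TRiC folds actin and tubulin inside its ring. In striated muscle, chaperones are known for their work on the contractile apparatus: Hspb8, Bag3 and Hspa8 together remove filamin that has been damaged by tension, and heat shock factors switch on many chaperone genes under stress.

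The libraries held between 25249879 and 34141303 reads assigned to genes. All 81 chaperone genes were among the 13084 genes tested (mean count of at least 10), and their smallest count in any library was 39. Levels are in CPM, the usual unit of counts relative to library size, after TMM scaling, a correction for differences in RNA composition between libraries. Of 10 skeletal muscle markers 3 were tested (Myh1, Tnni2 and Des) and all were high. Their summed level was 36110 CPM in WS and 34330 in KS, and 26090 in WD and 27470 in KD. Myh1, a fast myosin gene, had 24263 (WS) and 21597 CPM (KS) in sham muscle and 15667 (WD) and 17540 CPM (KD) in denervated muscle, and Tnni2, a fast troponin gene, had 8070.2 (WS) and 4558 CPM (WD) in WT and 8883 (KS) and 4637 CPM (KD) in Fgf21KO, both lower in denervated muscle, whereas Des, the desmin gene, was higher, with 3775 CPM in WS against 5865 in WD, and 3849.9 in KS against 5290.3 in KD. The summed level of 8 macrophage markers was 19.9 CPM in WS and 20.03 in KS, and 46.9 in WD and 44.1 in KD, and that of 4 endothelial markers was 396.5 CPM in WS and 319 in KS, and 179 in WD and 173 in KD. The sum of 6 fibroblast and fibro-adipogenic progenitor markers was 617.5 CPM in WS and 596.1 in KS, and 404.8 in WD and 421.5 in KD. Of 5 slow fibre markers 2 were tested, with sums of 9.3 CPM in WS and 7.4 in KS, and 48.6 in WD and 47.4 in KD. In these bulk samples, fewer cells of a type and less RNA per cell cannot be told apart. Fgf21, the gene deleted in Fgf21KO, was not analysed here.

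With 1 library per group, a ratio between 2 libraries has no test, and its 95% interval covers counting error only. The main test was edgeR's quasi-likelihood test in a model with genotype and surgery as separate effects over the 4 libraries. Its error starts from the part of each gene's pattern that these 2 effects leave over, with 1 residual degree of freedom. That part is the difference between genotypes in the response to denervation. The test then draws each gene's error toward a trend fitted over all genes tested. The test gives no SE, so each SE below is the absolute log2 fold change divided by the square root of the test's F statistic. The SEs and p-values below thus rest mainly on error shared across genes. A gene is said below to rise or fall where its Benjamini-Hochberg adjusted p was below 0.05, and is called where it also changed at least 2-fold. These p-values come from 4 pooled libraries and do not measure the spread between mice.

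To ask how loss of the nerve affected chaperone transcripts, denervated libraries were compared with sham libraries. After denervation, 8 chaperone genes rose at least 2-fold, 9.88% of the 81, against 6.8% of all genes tested. These were the small heat shock protein genes Hspb8, Hspb7 and Hspb1, the cytosolic Hsp90 genes Hsp90aa1 and Hsp90ab1, Hspa4l, Hspa1b and Cct3. A further 3 genes fell at least 2-fold (Hspa12b, Hspa12a and Dnajb5), 3.7% against 6.15% of all genes. Without the fold threshold, 42 chaperone genes rose, 51.9% against 26.4% of all genes, 13 fell, 16% against 26.6%, and 26 did neither. Their median log2 fold change was 0.30, beside 0.01 over all genes tested. When libraries were scaled by total counts only, the median of all genes itself moved to 0.33, and 58 chaperone genes rose and 6 fell, against 46.7% and 12.8% of all genes. On that scaling 19 were called higher and 1 lower, against 13% and 2.48% of all genes.

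The 81 genes together took 0.944% of the assigned reads in WS and 0.948% in KS, and 1.94% in WD and 1.91% in KD. These shares are of raw counts, in which mitochondrially encoded genes took 27.33% in WS and 30.8% in KS, and 19.65% in WD and 20.79% in KD. After TMM scaling, the 81 genes summed to 10240 CPM in WS and 10896 in KS, and 17310 in WD and 17172 in KD. By both measures the denervated libraries were above both sham libraries. The sums below are TMM-scaled. Most of the gain lay in small heat shock proteins and Hsp90. The summed level of the 5 small heat shock protein genes was 2348 CPM in WS and 2654 in KS, and 6532 in WD and 6252 in KD. The 3 Hsp90 genes summed to 1373, 1432, 2756 and 2904 CPM in the same order, and the 7 TRiC genes to 826, 885, 1311 and 1333 CPM. By contrast, the 24 class C J-domain genes summed to 1041 CPM in WS and 1078 in KS, and 974 in WD and 964 in KD.

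**Figure D1:**
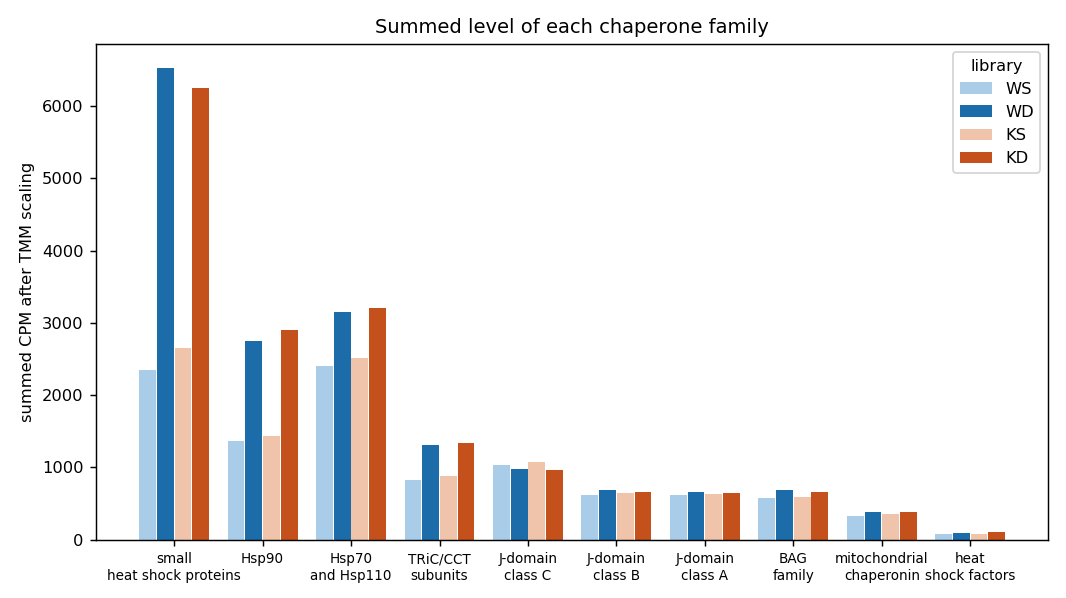
Bars give the summed CPM (TMM-scaled, linear axis from 0) of each chaperone family in the 4 libraries, with 1 bar per library and no error bar, since each group is 1 library. Small heat shock proteins reach 6532 CPM in WD and 6252 in KD, from 2348 in WS and 2654 in KS, while the bars of the J-domain and BAG families differ far less between surgeries.

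**Figure D2:**
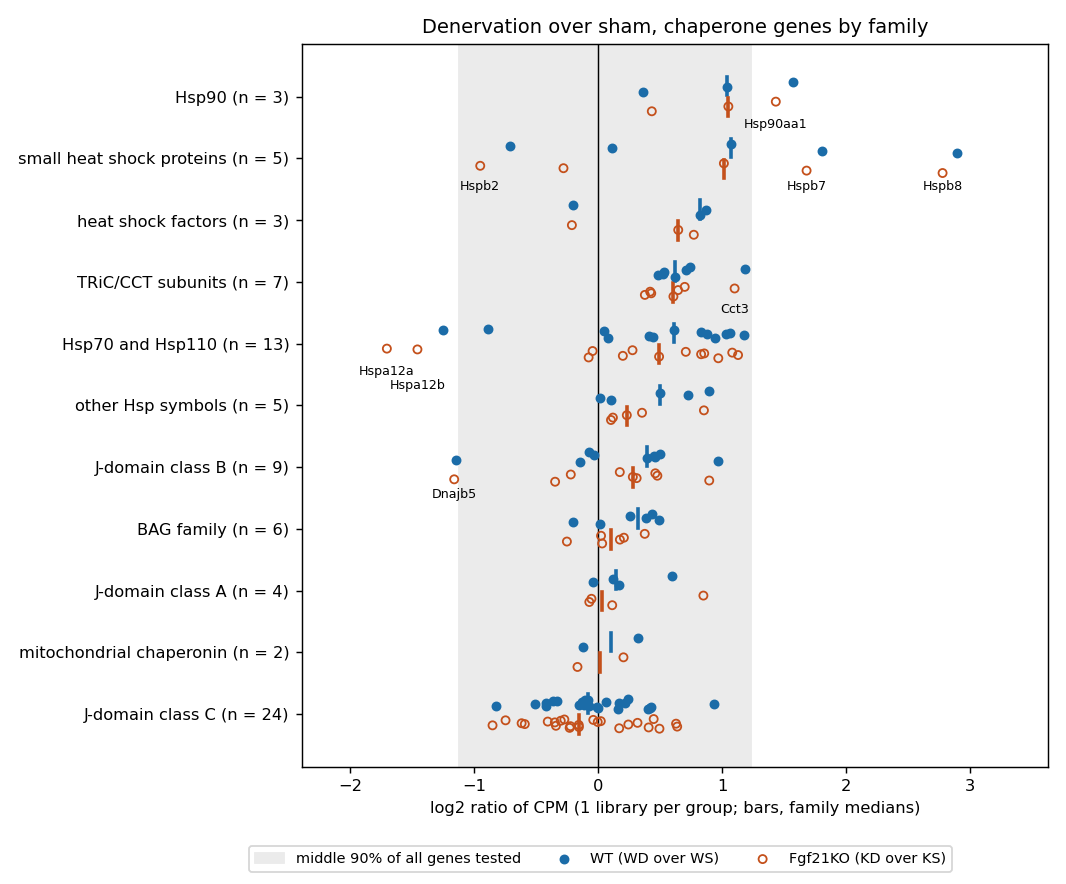
Each point is 1 gene's log2 ratio of CPM, denervated over sham, in WT (filled) or Fgf21KO (open), by family. Short bars are family medians and the grey band holds the middle 90% of all genes tested. Hspb8, Hspb7 and Hsp90aa1 lie beyond the band on the right in both genotypes, Hspa12a in Fgf21KO and Hspa12b in both lie beyond it on the left, and every TRiC subunit lies right of 0.

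Of the 5 small heat shock protein genes, 3 rose past 2-fold, 1 fell (Hspb2, below 2-fold) and 1 did not pass the test (Hspb6). Those called higher were 60% of the family against 6.8% of all genes, and 20% fell against 26.6%. Hspb8, whose product works with Bag3 in sorting damaged proteins for autophagy, changed most of all 81 genes. It stood at 369.8 (WS) and 374 CPM (KS) in sham muscle and 2755 (WD) and 2567 CPM (KD) in denervated muscle. The 2 sham libraries were nearly level, and both denervated libraries were far above them (7.15-fold, log2 fold change 2.84, SE 0.083, adjusted p = 2.81e-16).

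Hspb7, a small heat shock protein abundant in heart and skeletal muscle, had 651 (WS) and 2274 CPM (WD) in WT and 711 (KS) and 2280.4 CPM (KD) in Fgf21KO. It rose 3.35-fold (log2 fold change 1.74, SE 0.08, adjusted p = 2.89e-13), with both denervated libraries above both sham libraries. The promoters of these 2 genes are shown because they belong to the chaperone genes with the greatest rise. Each is the 250 bases before the start of transcription in RefSeq (GRCm38.p6), read 5′ to 3′ on the gene's strand, at chr5:116422865-116423114, minus strand for Hspb8 and chr4:141420529-141420778, plus strand for Hspb7. All letters are in lower case because neither heat shock element nor endoplasmic reticulum (ER) stress element letters, spelled out further on, were found.
Hspb8: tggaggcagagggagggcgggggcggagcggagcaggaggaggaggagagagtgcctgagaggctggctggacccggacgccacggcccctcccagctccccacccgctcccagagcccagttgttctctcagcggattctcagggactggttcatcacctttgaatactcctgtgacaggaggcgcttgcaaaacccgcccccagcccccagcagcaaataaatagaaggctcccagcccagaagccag
Hspb7: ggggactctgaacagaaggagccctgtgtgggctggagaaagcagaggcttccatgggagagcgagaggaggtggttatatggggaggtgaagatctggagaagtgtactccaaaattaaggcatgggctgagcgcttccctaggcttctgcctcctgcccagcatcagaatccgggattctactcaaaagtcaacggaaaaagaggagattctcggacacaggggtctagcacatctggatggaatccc

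Hspb1 encodes Hsp25, the mouse form of Hsp27, which binds and steadies actin filaments. Its level was 93.3 CPM in WS against 196 in WD, and 109 in KS against 219.5 in KD (2.06-fold, log2 fold change 1.04, SE 0.071, adjusted p = 1.83e-10). The groups did not overlap, but the change sat just above the 2-fold threshold. The processed pseudogene Hsp25-ps1 is 99.4% identical to Hspb1 over 630 aligned bases and also rose, at 10.8 (WS) and 12.8 CPM (KS) in sham muscle and 20.1 (WD) and 23.2 CPM (KD) in denervated muscle. Reads could be shared between the copies. When both were summed, the log2 fold change was 1.03.

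Hspb6 and Hspb2 did not follow that pattern. Hspb6, the gene of Hsp20, had 1179 (WS) and 1274 CPM (WD) in WT and 1402 (KS) and 1154 CPM (KD) in Fgf21KO. Its log2 ratio was 0.11 (interval 0.09 to 0.13) in WT and -0.28 (interval -0.30 to -0.26) in Fgf21KO, so KS was the highest library and KD the lowest, and the additive model gave -0.08 (adjusted p = 0.435). With total counts only, the ratio was above 0 in both genotypes (0.39 in WT and 0.077 in Fgf21KO), WD was the highest library and the additive model gave 0.23 (adjusted p = 0.016). Hspb2, which encodes a binding partner of the myotonic dystrophy protein kinase, had 54.9 CPM in WS against 33.5 in WD, and 59.1 in KS against 30.5 in KD. It fell below both sham libraries in both denervated libraries (log2 fold change -0.83, SE 0.087, adjusted p = 8.73e-08).

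Per kilobase of exon, which allows levels of different genes to be set side by side, the 5 highest means over the libraries were those of Hspb8, Hsp90ab1, Hspb6, Hspb7 and Hspa8. Hspb8 had 189.6 CPM per kb in WS and 192 in KS, and 1413 in WD and 1317 in KD. Hspb6 had 513 CPM per kb in WS and 609.7 in KS, and 554 in WD and 502 in KD, which put it above Hspb8 in both sham libraries and below it in both denervated libraries. Hspb7 had 235 CPM per kb in WS and 257 in KS, and 821 in WD and 824 in KD and so also passed from below Hspb6 to above it with denervation. Exon lengths come from an annotation of another genome build than the study's, so these levels are approximate.

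**Figure D3:**
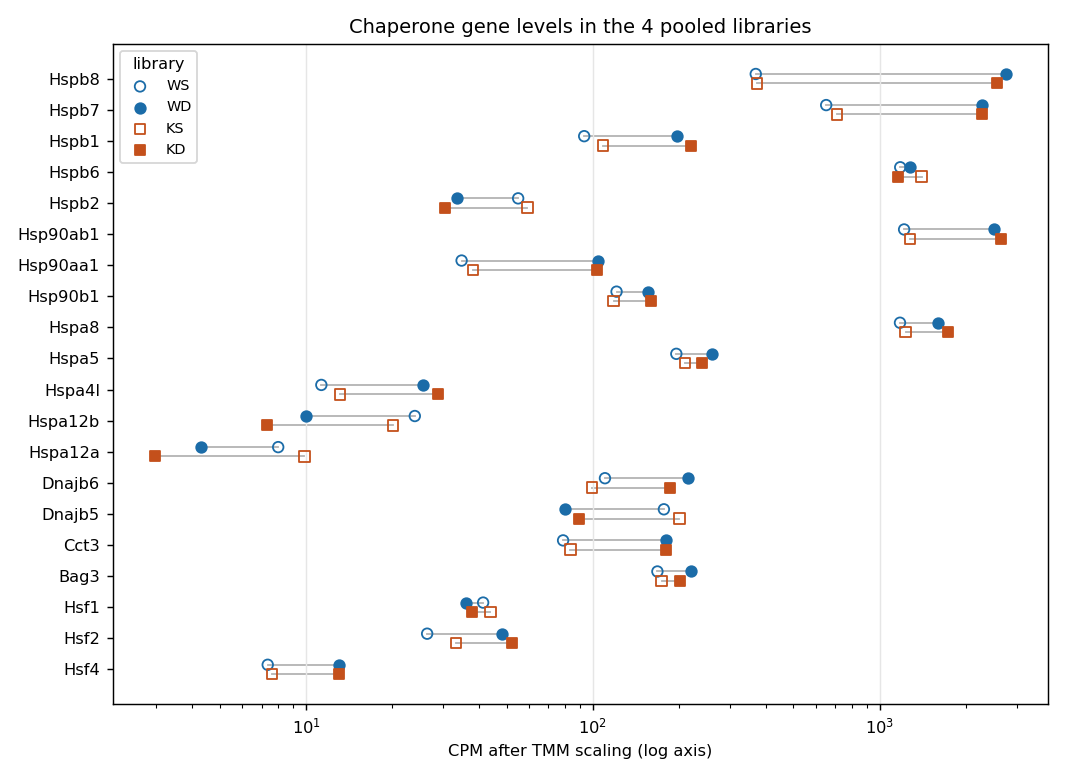
CPM (TMM-scaled, log axis) of 20 chaperone genes in the 4 libraries, with circles for WT, squares for Fgf21KO, open symbols for sham and filled symbols for denervated, and a line joining the 2 surgeries of a genotype. The lines of the 2 genotypes lie close together for nearly every gene, whereas for Hspb6 they point in opposite directions, which they do not with total counts only.

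All 3 Hsp90 genes rose, against 26.4% of all genes. Hsp90aa1, the stress-inducible cytosolic form, had 34.9 (WS) and 38.2 CPM (KS) in sham muscle and 104 (WD) and 103 CPM (KD) in denervated muscle (2.84-fold, log2 fold change 1.504, SE 0.079, adjusted p = 2.86e-12). Hsp90ab1, the constitutive cytosolic form and the more abundant of the pair per kilobase of exon, had 1217 (WS) and 2496 CPM (WD) in WT and 1275 (KS) and 2641 CPM (KD) in Fgf21KO (2.06-fold, log2 fold change 1.04, SE 0.079, adjusted p = 7.5e-10). In both genes the denervated libraries lay well above the sham libraries and the 2 genotypes were close. Hsp90b1, which encodes the ER form Grp94, had 121 CPM in WS against 156 in WD, and 118 in KS against 159 in KD and rose by less than 2-fold (log2 fold change 0.40, SE 0.071, adjusted p = 8.16e-05).

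Of 13 Hsp70 and Hsp110 genes, 9 rose, 2 fell and 2 did not pass the test. The shares were 69.2% rising and 15.4% falling, against 26.4% and 26.6% of all genes. The most abundant member per kilobase of exon was Hspa8, the gene of the constitutive cytosolic Hsp70 (Hsc70), with 1177 (WS) and 1231 CPM (KS) in sham muscle and 1602 (WD) and 1730.1 CPM (KD) in denervated muscle (log2 fold change 0.47, SE 0.076, adjusted p = 2.97e-05). It rose by less than 2-fold, and both denervated libraries were above both sham libraries. The heat-inducible Hsp70 genes were low: Hspa1b had 2.92 (WS) and 6.19 CPM (WD) in WT and 2.76 (KS) and 5.92 CPM (KD) in Fgf21KO (log2 fold change 1.09, SE 0.21, adjusted p = 0.000161) and Hspa1a had 3.74 CPM in WS against 6.72 in WD, and 3.84 in KS against 6.31 in KD (log2 fold change 0.78, SE 0.19, adjusted p = 0.00192). These 2 genes are 99.1% identical over 2210 aligned bases, and their reads may be split between them. How reads that match both were counted is not given in the sources used here. Their low level and the call of Hspa1b apart from Hspa1a are thus uncertain. Summed, the 2 genes had a log2 fold change of 0.92, below the 2-fold threshold.

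The genes of the Hsp110 group, whose products reset Hsp70 by releasing its nucleotide, rose together. Hspa4l had 11.3 (WS) and 13.1 CPM (KS) in sham muscle and 25.6 (WD) and 28.8 CPM (KD) in denervated muscle (2.23-fold, log2 fold change 1.15, SE 0.11, adjusted p = 2.15e-08). Hsph1, the Hsp105 gene, had 85.5 (WS) and 164 CPM (WD) in WT and 87.1 (KS) and 171 CPM (KD) in Fgf21KO and fell just short of 2-fold (log2 fold change 0.96, SE 0.072, adjusted p = 7.27e-10). Hspa4 had 139 CPM in WS against 256 in WD, and 137 in KS against 243 in KD (log2 fold change 0.86, SE 0.07, adjusted p = 2.96e-09). All 3 had log2 ratios above 0 in both genotypes, as did 42.3% of all genes tested.

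Among other Hsp70 genes, Hspa5 rose by less than 2-fold, and Hspa9 and Hspa14 did not pass the test. Hspa5, which encodes BiP, the Hsp70 of the ER, had 195 (WS) and 209 CPM (KS) in sham muscle and 259 (WD) and 240.1 CPM (KD) in denervated muscle (log2 fold change 0.30, SE 0.074, adjusted p = 0.00169). Hspa9, which encodes mortalin, the Hsp70 of mitochondria, had 722 (WS) and 765 CPM (WD) in WT and 754 (KS) and 715 CPM (KD) in Fgf21KO, and the additive model gave 0.00 (adjusted p = 0.98). Its log2 ratio was 0.08 (interval 0.05 to 0.11) in WT and -0.08 (interval -0.10 to -0.05) in Fgf21KO, and 0.36 and 0.28 with total counts only. Hspa14, the gene of a ribosome-bound Hsp70, was nearly level after TMM scaling, between 14.9 and 16.2 CPM in all 4 libraries. With total counts only, Hspa5, Hspa9 and Hspa14 all passed the test, with log2 fold changes of 0.62, 0.32 and 0.32. Of the remaining genes, Hspa2 rose with a log2 fold change of 0.94 and Hspa13 with 0.44.

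The 2 genes that fell, Hspa12b and Hspa12a, encode distant relatives of Hsp70. Hspa12b, known for its expression in endothelial cells, had 23.9 CPM in WS against 9.996 in WD, and 20.1 in KS against 7.28 in KD (log2 fold change -1.36, SE 0.12, adjusted p = 1.03e-08). Both denervated libraries were below both sham libraries. The endothelial markers named above moved with it: Cdh5, the VE-cadherin gene, had 159 (WS) and 122 CPM (KS) in sham muscle and 66.5 (WD) and 58.3 CPM (KD) in denervated muscle, and Kdr, a receptor for vascular endothelial growth factor, had 94.97 (WS) and 39.5 CPM (WD) in WT and 74.2 (KS) and 40.7 CPM (KD) in Fgf21KO. Of the 4 endothelial markers 2 were called lower, beside 6.15% of all genes, and none higher. The sums of the skeletal muscle, fibroblast, Schwann cell and red cell markers were also lower in denervated muscle in both genotypes. Those of macrophage and slow fibre markers were higher. The part of any of these cells in the fall of Hspa12b was not tested. Hspa12a had 7.99 CPM in WS against 4.29 in WD, and 9.86 in KS against 2.98 in KD, few reads beside most members (186, 140, 293 and 92 reads in WS, WD, KS and KD). Its log2 ratio was -0.89 (interval -1.22 to -0.57) in WT and -1.71 (interval -2.08 to -1.39) in Fgf21KO (log2 fold change -1.304, SE 0.20, adjusted p = 1.61e-05 in the additive model), and with total counts only it passed the test at a log2 fold change of -0.99, short of 2-fold.

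TRiC is a double ring of related subunits, of which 7 carry Cct symbols in the table. All 7 rose, on each scaling tried, with log2 fold changes from 0.43 (Cct7) to 1.14 (Cct3). Of all genes, 26.4% rose, and 46.7% with total counts only. Cct3 had 78.7 (WS) and 83.5 CPM (KS) in sham muscle and 179.5 (WD) and 179 CPM (KD) in denervated muscle and was the only subunit past 2-fold (log2 fold change 1.14, SE 0.073, adjusted p = 5.63e-11). Cct3 thus changed by more than any other subunit in both genotypes. Cct2 had 114 (WS) and 191 CPM (WD) in WT and 117 (KS) and 189.5 CPM (KD) in Fgf21KO (log2 fold change 0.72, SE 0.071, adjusted p = 3.9e-08), and Cct5 had 132 CPM in WS against 191 in WD, and 147 in KS against 196 in KD (log2 fold change 0.47, SE 0.071, adjusted p = 1.12e-05). Cct6a, Cct8 and Cct4 rose with 0.48, 0.61 and 0.68. Tcp1, which encodes the first subunit and has no Cct symbol, had 192 (WS) and 193 CPM (KS) in sham muscle and 289 (WD) and 278 CPM (KD) in denervated muscle and also rose (log2 fold change 0.56, SE 0.07, adjusted p = 1.24e-06). Each of these subunits had a log2 ratio above 0 in both genotypes, as did 42.3% of all genes tested.

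The mitochondrial chaperonin is made of Hsp60 and its lid Hsp10, the products of Hspd1 and Hspe1. Hspd1 had 265 (WS) and 331 CPM (WD) in WT and 287 (KS) and 331 CPM (KD) in Fgf21KO and rose slightly (log2 fold change 0.26, SE 0.071, adjusted p = 0.00401). Hspe1 had 58.9 CPM in WS against 54.2 in WD, and 61.9 in KS against 55.1 in KD, and did not pass the test (log2 fold change -0.14, SE 0.077, adjusted p = 0.124, 0.17 with total counts only). The pair lie head to head, with 215 bases between a start of each in RefSeq, and are read in opposite directions. In the annotation used for exon lengths, their exons share 112 bases, 7.6% of those of Hspe1. A processed copy, Hspd1-ps3, is 99% identical to Hspd1 over 1722 bases, and the sum of both had a log2 fold change of 0.26.

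J-domain proteins bring clients to Hsp70 and start its cycle. Of the 9 class B genes 5 rose and 2 fell, 55.6% and 22.2% against 26.4% and 26.6% of all genes. Dnajb6, whose product holds back protein aggregation and is mutated in a limb-girdle muscular dystrophy, rose most, with 110.2 (WS) and 99.5 CPM (KS) in sham muscle and 215 (WD) and 185 CPM (KD) in denervated muscle (log2 fold change 0.93, SE 0.071, adjusted p = 9.95e-10). Dnajb11, the gene of an ER-resident J protein, had 46.6 (WS) and 65.7 CPM (WD) in WT and 48.2 (KS) and 66.4 CPM (KD) in Fgf21KO (log2 fold change 0.48, SE 0.078, adjusted p = 2.99e-05).

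Dnajb5 fell past 2-fold. Its product is known to bind class II histone deacetylases in a complex with thioredoxin. The gene had 177 CPM in WS against 79.8 in WD, and 200.2 in KS against 89.4 in KD (log2 fold change -1.16, SE 0.071, adjusted p = 3.84e-11), with both denervated libraries below both sham libraries, and its log2 fold change was -0.84 with total counts only, which passed the test but not the fold threshold. Dnajb9, the gene of another ER-resident J protein, had 44.2 (WS) and 52.9 CPM (KS) in sham muscle and 39.99 (WD) and 41.6 CPM (KD) in denervated muscle and fell by less (log2 fold change -0.25, SE 0.085, adjusted p = 0.0187), a direction that turned to 0.07 with total counts only. Dnajb4, Dnajb2 and Dnajb14 rose with log2 fold changes of 0.35, 0.37 and 0.46, and Dnajb12 (-0.13) did not pass the test. Dnajb1, the usual heat-inducible partner of Hsp70, had 8.17 (WS) and 7.76 CPM (WD) in WT and 6.9003 (KS) and 7.79 CPM (KD) in Fgf21KO (log2 fold change 0.05, SE 0.16, adjusted p = 0.806), also not past the test.

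Of the 4 class A genes only Dnaja1 rose, at 34.1 CPM in WS against 51.6 in WD, and 32.6 in KS against 58.8 in KD (log2 fold change 0.73, SE 0.087, adjusted p = 6.24e-07), and with total counts only all 4 did. That 1 gene was 25% of the class, near the 26.4% of all genes that rose. With total counts only, 46.7% of all genes rose. Dnaja1 encodes a general partner of cytosolic Hsp70. Dnaja4 had 153 (WS) and 156 CPM (KS) in sham muscle and 172 (WD) and 168 CPM (KD) in denervated muscle (log2 fold change 0.14, SE 0.07, adjusted p = 0.103), but 44.1% of its exon bases are shared with Wdr61 on the other strand. Dnaja2 and the mitochondrial Dnaja3 had log2 fold changes of 0.03 and -0.06, neither past the test.

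Class C, whose products share little outside the J domain, had 7 genes rising, 7 falling and 10 doing neither, and none called. Each direction held 29.2% of the class, near the 26.4% and 26.6% of all genes. Scaled by total counts only, 11 rose and 2 fell, 45.8% and 8.33%, against 46.7% and 12.8% of all genes. Dnajc2, which encodes a J protein bound to ribosomes, had 31.7 (WS) and 60.6 CPM (WD) in WT and 37.6 (KS) and 58.2 CPM (KD) in Fgf21KO (log2 fold change 0.78, SE 0.089, adjusted p = 3.05e-07), while its ribosomal partner gene Hspa14 is described above as nearly level. Dnajc30, a mitochondrial member that shares 26.2% of its exon bases with Bud23 on the other strand, had 15.99 CPM in WS against 21.5 in WD, and 16.8 in KS against 26.2 in KD (log2 fold change 0.54, SE 0.11, adjusted p = 0.000314). Dnajc27, the gene of a Rab-like small GTPase with a J domain, fell most and stayed lower on each scaling tried, with 151 (WS) and 148 CPM (KS) in sham muscle and 84.8 (WD) and 82.1 CPM (KD) in denervated muscle (log2 fold change -0.84, SE 0.072, adjusted p = 4.96e-09).

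Dnajc12, a J protein known for its work on aromatic amino acid hydroxylases, had 14.2 (WS) and 11.01 CPM (WD) in WT and 14.4 (KS) and 8.57 CPM (KD) in Fgf21KO (log2 fold change -0.56, SE 0.13, adjusted p = 0.00164). Dnajc21, with a role in ribosome assembly, and Dnajc19, with one in the mitochondrial inner membrane, fell with log2 fold changes of -0.55 and -0.52. Dnajc28 fell with -0.38, Dnajc13 with -0.32 and Dnajc15 with -0.27. Under total-count scaling, Dnajc27 and Dnajc21 still passed the test (-0.52 and -0.24). Dnajc12 (-0.24), Dnajc19 (-0.20), Dnajc28 (-0.06), Dnajc13 (0.00) and Dnajc15 (0.05) did not. Dnajc5, which encodes the synaptic vesicle chaperone cysteine string protein, rose with 65.6 CPM in WS against 87.6 in WD, and 66.3 in KS against 87.9 in KD (log2 fold change 0.41, SE 0.074, adjusted p = 8.99e-05). The other risers of the class were Dnajc18 (0.27), Dnajc8 (0.29), Dnajc9 (0.33) and Dnajc1 (0.35), and the 10 genes that did not pass lay between -0.18 and 0.06.

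BAG proteins link Hsp70 to other machineries. Of 6 genes, 2 rose, both below 2-fold, 33.3% against 26.4% of all genes. Bag1 had 154 (WS) and 161 CPM (KS) in sham muscle and 208 (WD) and 209 CPM (KD) in denervated muscle (log2 fold change 0.41, SE 0.07, adjusted p = 5.96e-05). Bag3, whose product joins Hspb8 to Hspa8, had 168 (WS) and 219 CPM (WD) in WT and 174 (KS) and 201 CPM (KD) in Fgf21KO (log2 fold change 0.30, SE 0.073, adjusted p = 0.00181). Beside the 7.15-fold rise of Hspb8, that of Bag3 was 1.23-fold and that of Hspa8 1.38-fold. Bag4 and Bag5 had log2 fold changes of 0.33 and -0.23, Bag2 of 0.14 and Bag6 of 0.02, none past the test. On total-count scaling, 5 of the 6 rose (83.3% against 46.7% of all genes), with 0.65 for Bag4, 0.46 for Bag2 and 0.34 for Bag6, and Bag5 (0.087) did not.

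The heat shock factors are the transcription factors of the response. Hsf1, its main activator, had 41.4 CPM in WS against 36.1 in WD, and 43.9 in KS against 37.9 in KD, and fell slightly (log2 fold change -0.21, SE 0.084, adjusted p = 0.0442), but its log2 fold change was 0.11, not past the test, with total counts only. Hsf2 had 26.4 (WS) and 33.4 CPM (KS) in sham muscle and 48.4 (WD) and 52.2 CPM (KD) in denervated muscle (log2 fold change 0.76, SE 0.088, adjusted p = 4.35e-07) and Hsf4 had 7.35 (WS) and 13.1 CPM (WD) in WT and 7.61 (KS) and 13.03 CPM (KD) in Fgf21KO (log2 fold change 0.80, SE 0.14, adjusted p = 5.2e-05), and in both the denervated libraries were above the sham libraries on each scaling tried. Of the remaining genes, Hspbap1 rose (log2 fold change 0.48, SE 0.18, adjusted p = 0.0323), Hspbp1, an exchange factor of Hsp70, had a log2 fold change of 0.07 and Hspb11, which encodes a protein of cilia rather than a chaperone, had 0.43 on low counts. Neither Hspbp1 nor Hspb11 passed the test.

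Promoters were searched for the letters to which heat shock factors and the ER stress response factors are known to bind. RefSeq promoters of GRCm38.p6, from 250 bases before to 50 after a start, were matched for 63 of the 81 genes (82 windows). The heat shock element was searched as 3 units in a row, GAA, TTC and GAA or TTC, GAA and TTC, with any 2 bases between units. The ER stress element was searched as CCAAT and CCACG with any 9 bases between them, on both strands. Heat shock element letters were in 7.32% of the chaperone windows and 0.603% of all 32851 windows, and belonged to Dnajb6, Hspd1, Hspe1 and Hsph1. These 4 genes had log2 fold changes from -0.14 to 0.96, with a median of 0.60, and the 59 without the letters had a median of 0.14. The matches of Hspd1 and Hspe1 lie in 1 shared stretch, which thus counts for 2 of the 4 genes. Hspb8, Hspb7, Hspb1, Hspa4l, Hspa1b and Cct3, which were called higher, were among the 59 without. Hsp90aa1 and Hsp90ab1, also called higher, had no matched promoter and were not searched. A match is a run of letters and not a bound site, and its absence concerns this window only.

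ER stress element letters were in 3.66% of the chaperone windows against 0.119% of all windows, and belonged to Hspa5, Hsp90b1 and Dnajc3. Hspa5 and Hsp90b1 rose by less than 2-fold and Dnajc3, with 48.05 CPM in WS against 45.5 in WD, and 56.4 in KS against 48.3 in KD, did not pass the test (-0.15). The stretches that hold the matches in 5 of these genes are printed with the matched letters in capitals, in the 250 bases before the start on the gene's strand, to show the motifs in place. For Hspd1 and Hspe1, the 215 bases between a start of each are given once, on the strand of Hspe1, where the capitals cover overlapping matches. They lie at chr5:29735648-29735897, plus strand for Dnajb6, chr1:55087933-55088147, plus strand for the pair, chr2:34771840-34772089, plus strand for Hspa5 and chr10:86705445-86705694, minus strand for Hsp90b1.
Dnajb6: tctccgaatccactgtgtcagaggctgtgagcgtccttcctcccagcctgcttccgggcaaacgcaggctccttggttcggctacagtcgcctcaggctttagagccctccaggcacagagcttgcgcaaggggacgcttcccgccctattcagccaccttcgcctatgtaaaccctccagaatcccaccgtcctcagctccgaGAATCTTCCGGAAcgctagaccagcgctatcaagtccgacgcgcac
Hspd1 and Hspe1: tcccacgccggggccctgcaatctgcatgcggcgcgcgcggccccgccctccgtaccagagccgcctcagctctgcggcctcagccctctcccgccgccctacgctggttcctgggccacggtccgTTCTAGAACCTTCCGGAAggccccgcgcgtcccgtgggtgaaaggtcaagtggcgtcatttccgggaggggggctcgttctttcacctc
Hspa5: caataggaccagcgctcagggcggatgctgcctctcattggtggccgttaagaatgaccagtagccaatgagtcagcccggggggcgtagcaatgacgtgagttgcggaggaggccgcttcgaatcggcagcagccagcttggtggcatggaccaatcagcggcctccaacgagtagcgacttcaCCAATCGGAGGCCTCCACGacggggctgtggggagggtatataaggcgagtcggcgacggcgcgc
Hsp90b1: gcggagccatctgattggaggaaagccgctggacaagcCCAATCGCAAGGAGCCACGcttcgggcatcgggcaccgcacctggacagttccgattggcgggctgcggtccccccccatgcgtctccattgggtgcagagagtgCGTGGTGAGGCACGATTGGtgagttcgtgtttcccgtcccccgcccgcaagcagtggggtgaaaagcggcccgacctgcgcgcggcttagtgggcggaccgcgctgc

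A further list of 67 chaperone and co-chaperone genes with other symbols was followed for comparison, of which 63 were tested. In it, 25 rose and 12 fell, 39.7% and 19% against 26.4% and 26.6% of all genes, with a median log2 fold change of 0.13. In each direction 2 were called, 3.17% against 6.8% of all genes higher and 6.15% lower. Scaled by total counts only, 47 rose and 5 fell, 74.6% and 7.94% against 46.7% and 12.8% of all genes. On that scaling 4 of the list were called higher and 1 lower, 6.35% and 1.59% against 13% and 2.48% of all genes. Cryab, which encodes the small heat shock protein alpha-B crystallin, rose, with 545 (WS) and 615 CPM (KS) in sham muscle and 1297 (WD) and 1519 CPM (KD) in denervated muscle (log2 fold change 1.28, SE 0.075, adjusted p = 1.69e-11). Its neighbour is Hspb2, which fell: in GENCODE M21 (GRCm38), Hspb2 lies at chr9:50751078-50752354 on the minus strand and Cryab at chr9:50751325-50756636 on the plus strand. Their exons share 252 bases, 30.2% of those of Hspb2, and whether reads were counted by strand is not given in the sources used here. Sdf2l1, the gene of an ER partner of Dnajb11, was low, at 1.89 (WS) and 4.51 CPM (WD) in WT and 2.49 (KS) and 6.18 CPM (KD) in Fgf21KO (log2 fold change 1.28, SE 0.23, adjusted p = 7.38e-05).

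Fkbp5 and Synpo2 were called lower in that list. Fkbp5, a co-chaperone of Hsp90 for steroid receptors, had 24.8 CPM in WS against 11.8 in WD, and 31.5 in KS against 14.3 in KD (log2 fold change -1.11, SE 0.11, adjusted p = 3.06e-08), and fell short of 2-fold with total counts only (-0.79). Synpo2, whose product recruits Bag3 to the muscle Z-disc, had 605 (WS) and 595 CPM (KS) in sham muscle and 233 (WD) and 219 CPM (KD) in denervated muscle (log2 fold change -1.41, SE 0.072, adjusted p = 1.81e-12). Stub1, the ubiquitin ligase that works with Hspb8, Bag3 and Hspa8, had 82.98 (WS) and 71.8 CPM (WD) in WT and 86.1 (KS) and 69.9 CPM (KD) in Fgf21KO and fell slightly (log2 fold change -0.26, SE 0.074, adjusted p = 0.00684), but stood at 0.06 with total counts only. Within this assembly Hspb8, Bag3 and Hspa8 thus rose while Synpo2 fell, on both scalings.

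To ask whether loss of Fgf21 altered these transcripts, Fgf21KO libraries were compared with WT libraries. No chaperone gene was called for genotype by edgeR's quasi-likelihood test or by DESeq2, against 0.168% of all genes by edgeR, and none had an adjusted p below 0.05, against 0.573%. At an unadjusted p below 0.05 there were 6 of 81, 7.41% against 7.62% of all genes. They were Hspa12b (log2 fold change of Fgf21KO over WT -0.34), Bag5 (-0.24), Dnajb6 (-0.18), Hsf2 (0.21), Hspb1 (0.19) and Dnajb5 (0.17), with adjusted p from 0.403 to 0.616. No chaperone gene was 2-fold apart between KS and WS, where 0.887% of all genes were higher and 1.15% lower, or between KD and WD, where 0.841% were higher and 0.718% lower. Between the sham libraries 63 of 81 were above 0 in KS over WS (77.8% against 50.1% of all genes), and between the denervated libraries 39 were in KD over WD (48.1% against 48.5%). With total counts only these became 39 (48.1% against 34.5%) and 35 (43.2% against 47%). Genes that miss the threshold are not shown to be equal.

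**Figure D4:**
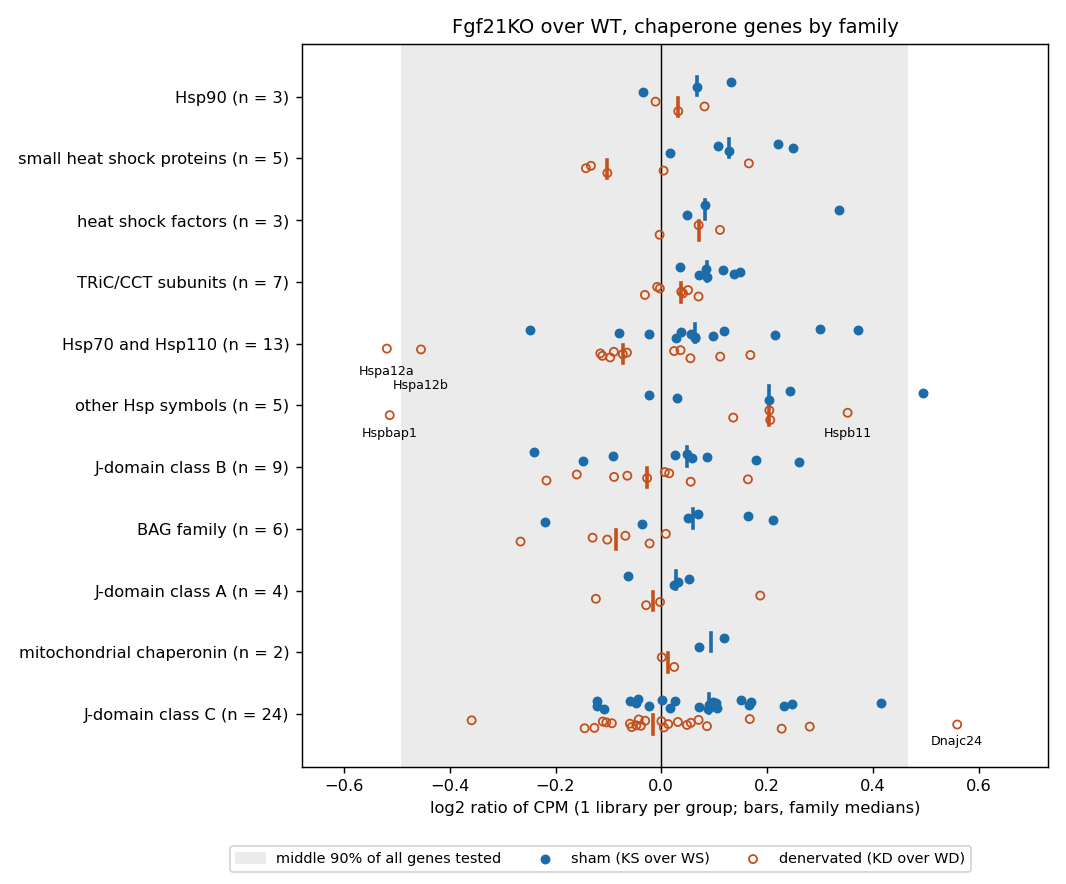
Each point is 1 gene's log2 ratio of CPM, Fgf21KO over WT, in sham (filled) or denervated (open) muscle, by family. Short bars are family medians and the grey band holds the middle 90% of all genes tested. No gene reaches a log2 ratio of 1 in either direction, and the labelled genes farthest out, such as Hspa12a and Dnajc24, have few reads.

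The response to denervation was then set side by side in the 2 genotypes. In WT, 9 chaperone genes stood at least 2-fold above their WS level in WD (11.1% against 7.25% of all genes) and 2 were lower (2.47% against 7.52%). In Fgf21KO, 8 stood as far above their KS level in KD (9.88% against 7.52%) and 3 were lower (3.7% against 6.07%). The ninth gene in WT was Hspa2, whose log2 ratio was 1.03 (interval 0.80 to 1.27) in WT and 0.86 (interval 0.64 to 1.08) in Fgf21KO, and the further gene that was lower in Fgf21KO was Hspa12a. The log2 ratio was above 0 for 56 of the 81 in WT (69.1% against 50.8%), for 52 in Fgf21KO (64.2% against 50.9%) and for 49 in both (60.5% against 42.3%). The median log2 ratio over the 81 genes was 0.32 in WT and 0.21 in Fgf21KO, beside 0.01 over all genes in each.

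The difference between the genotypes in this response could not be tested, because the additive model uses it as its error. The signed log2 ratio of denervation over sham was lower in Fgf21KO than in WT for 61 of the 81 genes (75.3% against 51.3% of all genes). With total counts only, it was lower for 40, 49.4% against 38.3%. These counts are not of weaker responses. They hold genes that rose less in Fgf21KO, such as Hspb8 (2.90 in WT and 2.78 in Fgf21KO), and genes that fell further, such as Hspb2 (-0.71 and -0.95). The same difference is KD over WD minus KS over WS, so it is not separate from the sham comparison above. After TMM scaling, the median log2 ratio of the 81 genes was 0.071 in KS over WS and -0.003 in KD over WD. The differences were small, with a median of -0.07, and 2 chaperone genes differed by at least 0.5, which is 2.47% against 15.4% of all genes and 9.48% of those with a mean count of at least 50. These were Hspa12a (-0.82) and Dnajc17 (-0.52), a gene linked to RNA splicing.

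Dnajc17 had 5.29 CPM in WS against 5.95 in WD, and 7.07 in KS against 5.53 in KD, so KS was the highest library and the other 3 were close. Hspbap1, which encodes a partner of Hsp25, had 5.1998 (WS) and 5.12 CPM (KS) in sham muscle and 8.62 (WD) and 6.02 CPM (KD) in denervated muscle, highest in WD. Dnajc24, required to make the diphthamide residue of elongation factor 2, was low at 2.66 (WS) and 2.39 CPM (WD) in WT and 2.996 (KS) and 3.56 CPM (KD) in Fgf21KO, highest in KD. For Hspbap1 the ratio was 0.72 (interval 0.42 to 1.05) in WT and 0.23 (interval -0.08 to 0.55) in Fgf21KO, and for Dnajc24 it was -0.15 (interval -0.66 to 0.35) in WT and 0.24 (interval -0.17 to 0.67) in Fgf21KO. All 3 genes had few reads, and none of these differences has a replicate.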

How the data were processed

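TA muscle RNA of 4 groups was sequenced as 1 pooled library each, from a stranded, poly(A)-selecting kit per the labels. The authors' main table holds raw counts of reads by gene. Their other deposited table, named for FPKM, was found to hold log2 values of counts scaled by 1 factor per library, plus 1. That table was used as an alternative only. The submitters' processing notes name FastQC and GRCm39, and the aligner and counter are not given in the sources used here. Positions, exon lengths and promoters come from GENCODE M21 and RefSeq on GRCm38, another build, and were matched by symbol.

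Tests were run with edgeR (4.0.16) or, as an alternative, DESeq2 (1.42.0) in R 4.3.3, and sequences were handled with Biopython 1.88 in Python 3.11.15. Of 13825 genes, the 13084 with a mean count of at least 10 were tested on the whole table, with TMM scaling, log2 ratios at a prior count of 2, and edgeR's quasi-likelihood test (additive model, common biological coefficient of variation 0.068) with Benjamini-Hochberg adjustment over all genes tested. A call needed an adjusted p below 0.05 and a 2-fold change, the study's own thresholds. Intervals of ratios (95%, exact binomial on 2 counts) cover counting error only. The steps were tested on simulated data. The labels name no separate animals within a library, and no batch is given.

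The members and the lists were chosen with earlier results of these data known. Genes were named by a rule: those called, the 2 highest and 2 lowest of each family, the 5 with the largest difference between genotypes, the 5 highest per length, Hspa1a, Hspa1b and the heat shock factors, and the called genes of the list of other chaperones. Other genes were named after their values were seen. The alternatives were other scalings, filters, prior counts, tests and summed copies.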

Additional observations from a re-analysis of the deposited data

Results flagged for a closer look

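Hspa9, Dnaja2 and Hspb6 moved in opposite directions with denervation in the 2 genotypes, each with a counting interval clear of 0 in both. They were 3 of 10 chaperone genes whose log2 ratios had opposite signs, 12.3% against 17.1% of all genes tested. With total counts only, all 3 had ratios above 0 in both genotypes: 0.36 in WT and 0.28 in Fgf21KO for Hspa9, 0.40 and 0.30 for Dnaja2, and 0.39 and 0.077 for Hspb6. On that scaling 3 chaperone genes had opposite signs, 3.7% against 13.8%. The difference, Fgf21KO minus WT, was -0.16 on the log2 scale for Hspa9, the mitochondrial Hsp70 gene, -0.18 for Dnaja2, a partner of cytosolic Hsp70, and -0.39 for Hspb6, the Hsp20 gene. Dnaja2 stood at 261 CPM in WS and 284 in WD, and at 271 in KS and 261 in KD. The difference between genotypes was not tested, since each group is 1 library, and the intervals leave out the spread between muscles.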

How the results depend on the processing

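With total counts only, the median log2 ratio of all genes moved to 0.29 in WT and 0.36 in Fgf21KO, and the medians of the chaperone genes moved to 0.60 and 0.56, so that their distance from all genes changed little. Then 19 were called higher and 1 lower. In WT 18 were at least 2-fold higher and 0 lower, and in Fgf21KO 19 were 2-fold higher. On that scaling 1 differed by at least 0.5 between genotypes, and the signed log2 ratio was lower in Fgf21KO for 40. The log2 fold changes of 7 named genes turned positive: 0.087 for Bag5, 0.11 for Hsf1, 0.26 for Dnaja3, 0.071 for Dnajb9, 0.17 for Hspe1, 0.23 for Hspb6 and 0.22 for Dnajc17. Hspa12a, Dnajb5 and Fkbp5 fell short of 2-fold. Without the fold threshold, 42 were called higher and 13 lower. In the second deposited table, 1 gene differed by at least 0.5 between genotypes. In an exact test of 2 libraries at an assumed variation of 0.2, 3 genes were called higher and 1 lower in WT and 3 higher in Fgf21KO, and at 0.4 the counts were 0 and 0 in WT and 0 and 0 in Fgf21KO, because the assumed spread is then wide. Other causes were not tested. DESeq2, other filters and prior counts, and TMM without mitochondrially encoded genes changed none of these counts by over 1.5 times. Summing near-identical copies was chosen after seeing the data for Hspb1 and Hspd1. Leaving out a replicate was not possible with 1 library per group. No analysis paired by single mouse was possible because the labels give no replicate numbers and muscles were pooled. Sham and denervated muscle came from opposite legs of the same mice. The genotype term of the additive model thus already sets each denervated pool against its own sham pool. Genotype differs between mice, and its p-values rest on the same error, which leaves out the spread between mice. Depth was not the limit for most members, which had at least 39 reads in each library, but for the rarest genes counting error alone is wide.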
